A study of Caenorhabditis elegans with 2 samples.

Results

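The genes described here are cct-1 to cct-8, which encode the 8 subunits of the cytosolic chaperonin CCT (also called TRiC) in the nematode Caenorhabditis elegans. They were chosen by name, as subunits of 1 complex, with earlier results of these data known. All 8 were found among the 19973 protein-coding genes of the Ensembl annotation. The question put to the data was whether subunits of 1 complex share binding by the protein of attf-3, a gene named for the AT-hook, a short DNA-binding motif.

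CCT is a barrel of 2 stacked rings, each built from the 8 related subunits, and it folds proteins inside its cavity with the energy of ATP. Actin and tubulin are its best known clients, and the prefoldin complex delivers them to it. Each position in the ring is filled by a different subunit, so cells need every subunit to build the barrel. In the worm, extra CCT-8 is known to raise CCT assembly and lengthen life.

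The data are chromatin immunoprecipitation with sequencing (ChIP-seq) peak lists, which mark where DNA bound by a protein piled up. The worms were of strain RW12296, in which CRISPR had placed TY1, EGFP and 3xFLAG tags at attf-3 on chromosome III, and an antibody against GFP recovered the fusion protein. Whole young adults at 63 hours, synchronised by starving L1 larvae after bleaching, formed 1 group with 2 biological replicates. There is no second condition, so no test between groups was possible. The tagged copy sits at the gene itself rather than under a foreign promoter. Because whole worms were used, the lists do not tell in which tissue a site was bound. The control behind the lists was not analysed here.

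Sites were scored mainly in the conservative thresholded list of both replicates, called the joint list, which holds 1737 peaks. Each replicate also has its own list, with 964 peaks for replicate 1 and 1063 for replicate 2, and a second thresholded list of both replicates holds 1700. All these lists end at a threshold of 0.01 in the irreproducible discovery rate (IDR). The IDR estimates, from 2 rankings of the peaks, the share of irreproducible peaks among those ranked at least as high. Longer ranked lists, from before that threshold, hold 71287 peaks for the joint list, 43427 for replicate 1 and 37734 for replicate 2. A gene counted as bound if the annotated 5′ end was at most 500 bp from a peak summit, and unbound means only that the list has no such summit. Signal is the authors' own value for a peak, on a scale that the sources used here do not state, so it was compared between peaks of 1 list. The lists hold no read counts, and depth is therefore unknown.

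The stretches of genome under the CCT summits are shown first, because the results turn on which of these promoters carried a peak and on what their sequences share. Each line gives 201 bp of the plus strand of ce11, read 5′ to 3′ from the RefSeq copy of the assembly, with the summit at the middle base. The summits of cct-1, cct-7 and cct-8 are from the joint list, and that of cct-6 is from the second thresholded list. The summits of cct-2, cct-4 and cct-5 are the highest ones of the joint ranked list within 500 bp of the 5′ ends, all short of the threshold. The 5′ end of cct-3 had no joint ranked summit within 500 bp. The genes cct-1, cct-2, cct-3, cct-4 and cct-7 lie on the plus strand and cct-5, cct-6 and cct-8 on the minus strand. Capitals mark some of the words that 2 or 3 of the windows share, which were picked after the windows had been seen. The windows are chrII:8185124-8185324 for cct-1, chrII:8927346-8927546 for cct-2, chrII:8283379-8283579 for cct-4, chrIII:4508459-4508659 for cct-5, chrIII:5855899-5856099 for cct-6, chrV:1871909-1872109 for cct-7 and chrIV:1094260-1094460 for cct-8.
cct-1: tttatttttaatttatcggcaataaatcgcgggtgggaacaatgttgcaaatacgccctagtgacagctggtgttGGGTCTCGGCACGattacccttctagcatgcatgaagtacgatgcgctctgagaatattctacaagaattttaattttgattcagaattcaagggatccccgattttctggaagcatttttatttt
cct-2: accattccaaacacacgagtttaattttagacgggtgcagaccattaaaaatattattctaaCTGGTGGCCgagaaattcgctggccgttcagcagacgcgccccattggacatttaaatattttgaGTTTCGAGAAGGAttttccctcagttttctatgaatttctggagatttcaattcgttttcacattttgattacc
cct-4: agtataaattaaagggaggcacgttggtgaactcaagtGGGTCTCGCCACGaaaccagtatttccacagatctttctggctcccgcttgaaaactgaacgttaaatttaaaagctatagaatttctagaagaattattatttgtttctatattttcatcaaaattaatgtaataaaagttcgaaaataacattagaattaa
cct-5: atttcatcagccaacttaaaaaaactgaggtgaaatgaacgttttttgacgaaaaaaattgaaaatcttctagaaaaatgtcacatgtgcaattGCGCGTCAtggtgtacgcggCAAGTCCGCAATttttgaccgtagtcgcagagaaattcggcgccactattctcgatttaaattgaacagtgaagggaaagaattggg
cct-6: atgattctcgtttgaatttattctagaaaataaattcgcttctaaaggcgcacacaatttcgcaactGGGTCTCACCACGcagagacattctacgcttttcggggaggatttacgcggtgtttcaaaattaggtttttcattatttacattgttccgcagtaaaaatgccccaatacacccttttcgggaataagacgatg
cct-7: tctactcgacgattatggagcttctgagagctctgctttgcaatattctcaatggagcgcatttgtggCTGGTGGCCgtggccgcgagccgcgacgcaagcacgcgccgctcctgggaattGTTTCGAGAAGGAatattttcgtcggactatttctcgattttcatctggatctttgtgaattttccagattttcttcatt
cct-8: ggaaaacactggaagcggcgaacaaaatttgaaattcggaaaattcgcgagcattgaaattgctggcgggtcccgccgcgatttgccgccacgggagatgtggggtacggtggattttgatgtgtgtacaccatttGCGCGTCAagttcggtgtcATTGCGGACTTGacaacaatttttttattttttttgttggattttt

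Of the 8 CCT genes, 3 were bound in the joint list: cct-1, cct-7 and cct-8. Over all 19973 protein-coding genes, 1212 were bound, or 6.07%. The second thresholded list had the same 3 genes and cct-6, beside 6.01% of all genes. The own list of replicate 1 held cct-1, cct-7 and cct-8 beside 4.03% of all genes, and the own list of replicate 2 held these 3 beside 4.4%. The remaining genes, cct-2, cct-3, cct-4 and cct-5, had a summit near the 5′ end in none of these 4 lists. The joint list thus held a peak for 3 of the subunits and none for the other 5, which with depth unknown does not show that those 5 promoters are free of the protein.

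Each of the 8 genes starts back to back with a gene on the other strand. The neighbours are mig-5 for cct-1, B0457.2 for cct-2, F54A3.6 for cct-3, nst-1 for cct-4, F25F2.1 for cct-5, alh-9 for cct-6, T10B5.4 for cct-7 and Y55F3AR.2 for cct-8. The gene mig-5 encodes a Dishevelled protein of Wnt signalling, nst-1 a nucleostemin and alh-9 an aldehyde dehydrogenase. The distance between the 2 divergent 5′ ends ran from 331 bp at cct-6 to 1190 bp at cct-2. At cct-2 and cct-3 (1070 bp) the windows of 500 bp around both 5′ ends do not overlap, so a summit there could count for 1 gene of the pair only. Over the genome, 9071 protein-coding genes (45.4%) have a divergent upstream neighbour at any distance and 3952 (19.8%) have one within 1200 bp, a limit set after the CCT distances had been seen. Of those 3952 genes, 637 were bound in the joint list, or 16.1%. These genes share the layout of the CCT genes, so their share is the closer background.

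All 3 joint peaks lay between the 2 divergent 5′ ends, and each summit was nearer to the partner than to the CCT gene. When a summit was given only to the nearest 5′ end of a protein-coding gene, no CCT gene was bound, 0 of 8. By this rule 932 of all genes (4.67%) were bound. The 3 peaks then went to mig-5, T10B5.4 and Y55F3AR.2. Non-coding genes were left out of this rule, though the non-coding RNA gene T10B5.13 starts nearer to the cct-7 summit than T10B5.4 does. Among 571 bound genes with a summit between 2 divergent 5′ ends, it was nearer to the partner in 246 (43.1%). A peak list cannot tell which gene of a divergent pair a bound protein acts on.

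**Figure D1:**
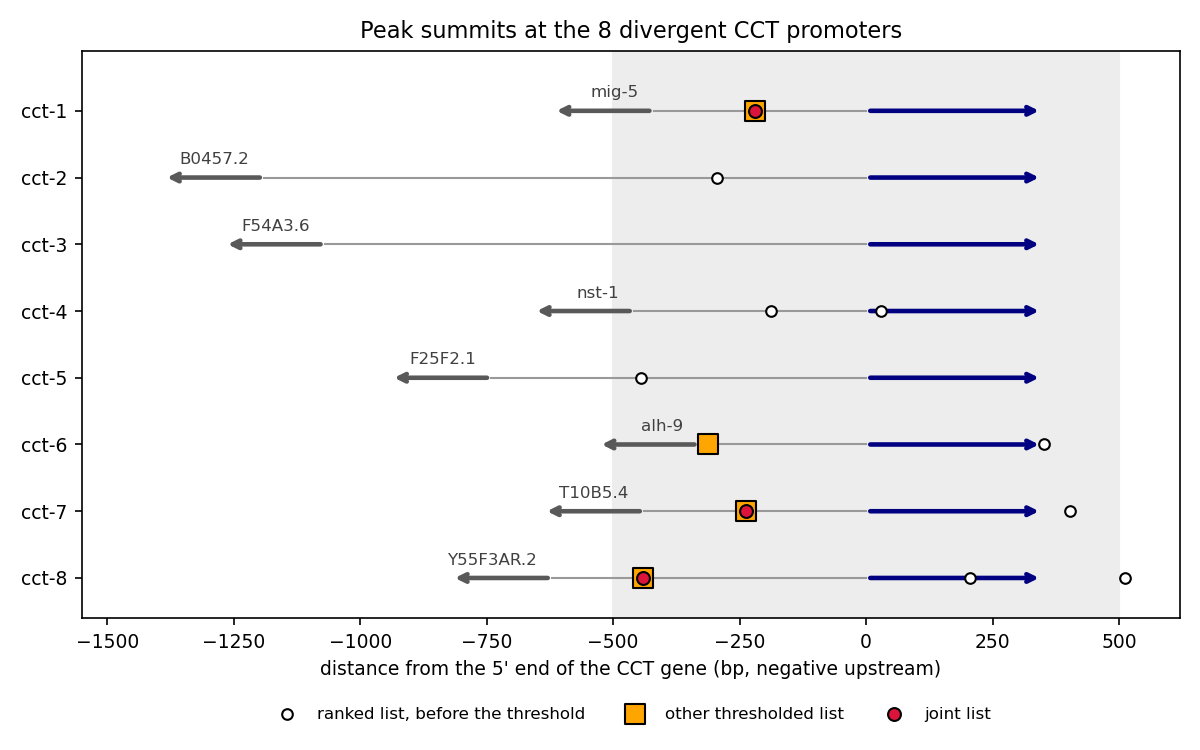
Peak summits at the 8 CCT promoters, with the distance from the 5′ end of the CCT gene in bp on the horizontal axis, the window of 500 bp shaded, the CCT genes as blue arrows and the divergent neighbours as grey arrows. Red points (joint list) stand at cct-1, cct-7 and cct-8, between the 2 divergent starts in each case, orange squares (second thresholded list) add cct-6, and open points are ranked summits short of the threshold.

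The highest CCT signal was at cct-8 (WBGene00021934, chromosome IV, 1087108 to 1093920, minus strand). Its peak ran from 1094223 to 1094495, with the summit at 1094360, 440 bp upstream of cct-8 and 181 bp upstream of Y55F3AR.2. The joint signal was 1016.26 and ranked 77 of 1737. Replicate 1 gave 549.76 (rank 62 of 964) and replicate 2 gave 470.458 (rank 97 of 1063), for a mean of 510 ± 56.1 (SD, n = 2). The replicates placed the summit 441 and 439 bp upstream, within 2 bp of each other. Both replicates were high here: 106 protein-coding genes had a higher joint signal, and 99.46% of all genes had a lower one or no summit. The summit lay outside annotated genes, beside the non-coding RNA gene Y55F3AR.4 (1094087 to 1094209).

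The peak at cct-1 (WBGene00000377, chromosome II, 8185443 to 8187601, plus strand) was narrow, at 139 bp from 8185133 to 8185271. Its summit at 8185224 lay outside annotated genes, 219 bp upstream of cct-1 and 201 bp upstream of mig-5, near the middle of the 420 bp between them. The joint signal was 256.764, rank 359 of 1737. Replicate 1 gave 146.434 (rank 305) and replicate 2 gave 100.284 (rank 497), for a mean of 123 ± 32.6 (SD, n = 2). This was the bound CCT gene on which the replicates differed most. Replicate 1 exceeded replicate 2 by 1.46 times, while over 1198 bound genes with a ranked peak in both replicates the ratio had a median of 0.912, with 0.614 and 1.37 at the 5th and 95th percentiles. The replicates' summits were also further apart than at the other bound genes, at 249 and 220 bp upstream.

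The peak at cct-7 (WBGene00020391, chromosome V, 1872246 to 1875505, plus strand) ran from 1871849 to 1872168. Its summit at 1872009 was 237 bp upstream of cct-7 and 202 bp upstream of T10B5.4, in an exon of the non-coding RNA gene T10B5.13 (WBGene00195501, 1871980 to 1872075). The joint signal of 177.944 ranked 536 of 1737. The replicates were close to each other, at 85.9261 (rank 549 of 964) and 92.0703 (rank 550 of 1063), for a mean of 89.0 ± 4.34 (SD, n = 2). Their summits lay 236 and 242 bp upstream. The joint signals of all 3 bound genes were above the median of the joint list, 123, and cct-8 stood apart from the others.

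The gene cct-6 (WBGene00000381, chromosome III, 5853530 to 5855687, minus strand) lay just outside the threshold of the joint list. Its peak, from 5855839 to 5856158 with the summit at 5855999, was 312 bp upstream of cct-6 and 19 bp upstream of alh-9. It had a signal of 115.855, rank 956 of 1700 in the second thresholded list. Its IDR was 0.0153 in the ranked list of the joint list and 0.000765 in that of the second list. Replicate 1 gave 34.6225 with an IDR of 0.869, and replicate 2 gave 75.9613 with an IDR of 0.0265, for a mean of 55.3 ± 29.2 (SD, n = 2). The signal was thus low in replicate 1 and higher in replicate 2, and neither replicate's own list kept it.

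In order of the replicates' mean signal, cct-8 came first, then cct-1, cct-7 and cct-6. The values of cct-8 and cct-1 were far apart in both replicates. Those of cct-1 and cct-7 did not overlap, but in replicate 2 they were 100.284 and 92.0703, and the difference of their means was close to the SD of cct-1. The highest value of cct-6, 75.9613, lay below the lowest of cct-7, 85.9261, with a spread at cct-6 larger than that gap. With 2 replicates the order of these 3 genes is a description only.

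The other 4 genes had weaker signal or none. At cct-2 (WBGene00000378, chromosome II, 8927741 to 8929815, plus strand) the highest ranked summit of the joint list was 295 bp upstream, with a signal of 65.1566 and an IDR of 0.665. Replicate 1 had 20.8642 at 294 bp upstream and a slightly higher 23.1488 at 339 bp inside the gene, and replicate 2 had 38.9713 at 287 bp upstream. At cct-5 (WBGene00000380, chromosome III, 4499188 to 4508114, minus strand) the joint ranked summit was 445 bp upstream, at 61.6381 with an IDR of 0.762. Replicate 1 listed no summit within 500 bp of this 5′ end, but one of 18.3517 just outside, at 575 bp upstream. Replicate 2 listed 44.5226 at 454 bp upstream. At these genes replicate 2 had the higher value.

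The same held at cct-4 (WBGene00000379, chromosome II, 8283667 to 8285711, plus strand), where the joint ranked summit 188 bp upstream had a signal of 59.3225 and an IDR of 0.792. Replicate 1 had 13.974 at 32 bp inside the gene, and replicate 2 had 45.6068 at 106 bp upstream, with an IDR of 0.018. The replicates therefore did not place a summit at the same spot. The gene cct-3 (WBGene00018782, chromosome II, 2233540 to 2243539, plus strand) had no summit within 500 bp of its 5′ end in the joint ranked list or in that of replicate 2. Replicate 1 alone listed a summit in that window, 21.1903 at 402 bp inside the gene, with an IDR of 0.933. Of the 8 genes, only cct-3 had no joint ranked summit in that window.

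**Figure D2:**
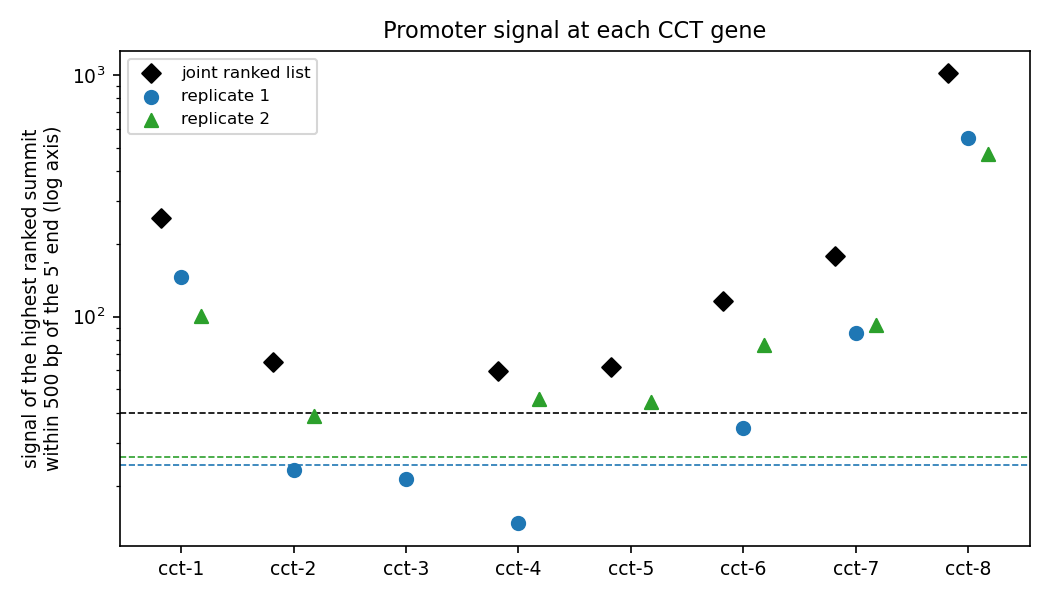
Signal of the highest ranked summit within 500 bp of each CCT gene's 5′ end, on a log axis, for the joint ranked list (black), replicate 1 (blue) and replicate 2 (green), with dashed lines at each list's median over all genes with a summit (39.8, 24.4 and 26.4). The values of cct-8 (1016.26, 549.76 and 470.458) stand above those of the other CCT genes, and replicate 2 exceeds replicate 1 at cct-2, cct-4, cct-6 and cct-7.

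A ranked summit is common and is not evidence of binding by itself. In the joint ranked list, 11099 protein-coding genes (55.6%) had a summit within 500 bp, with a median highest signal of 39.8 and quartiles of 29.6 and 55.1. The values of cct-2, cct-4 and cct-5 were above the upper quartile of these genes, and cct-3 belonged to the genes without a summit. Set against all genes, the percentage lower or without a summit was 98.05 for cct-1, 97.32 for cct-7, 95.73 for cct-6, 90.1 for cct-2, 88.88 for cct-5 and 87.92 for cct-4. The closest summits of the joint list to the 5′ ends of cct-2, cct-3, cct-4, cct-5 and cct-6 were 6161, 108656, 45461, 19013 and 16263 bp away.

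**Figure D3:**
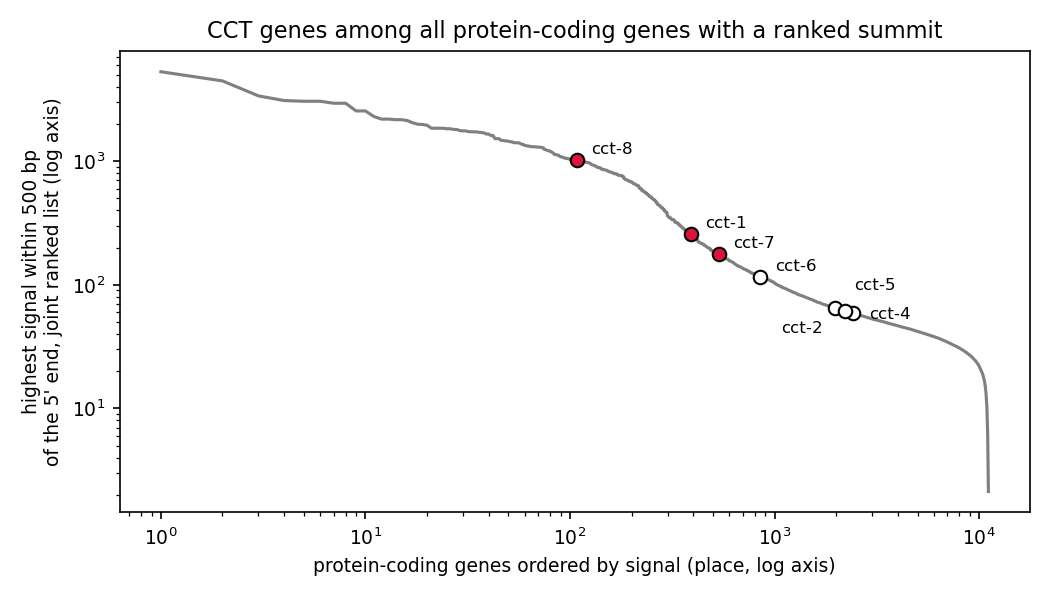
Highest joint ranked signal within 500 bp of the 5′ end for the 11099 protein-coding genes with such a summit, in descending order, both axes logarithmic. The bound genes cct-8, cct-1 and cct-7 (red) have 106, 387 and 534 genes above them, and cct-6, cct-2, cct-5 and cct-4 (open) have 850, 1977, 2219 and 2410.

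All 3 bound CCT genes had an overlapping peak in both replicates' own lists, at an overlap of at least 1 bp. With an overlap of at least 50% of both peaks, 2 of 3 did, since the joint peak at cct-1, of 139 bp, covered too little of the replicate 2 peak of 300 bp there. The replicate 1 peak at cct-1 was narrow as well, at 129 bp. The summits in both replicates lay within 100 bp of the joint summit at all 3 genes. Over all protein-coding genes, 1212 were bound in the joint list, 805 in the own list of replicate 1 and 879 in that of replicate 2. The share of all joint peaks with support in both own lists was not computed, so this support is not shown to be particular to CCT genes.

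Inside the genes there was no joint peak: 0 of 8 gene bodies held a joint summit, beside 471 of all protein-coding genes (2.36%). The ranked list of the joint list had 32 summits within the 8 gene bodies, the highest at 66.8727, 403 bp into cct-7, and none of these had an IDR below 0.123. Replicate 1 had 20 such summits and replicate 2 had 16, with lowest IDR values of 0.0753 and 0.0508. The joint peaks counted for CCT genes thus all lay upstream of them.

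A second joint peak lay 300 bp past the 3′ end of cct-7. It ran from 1875645 to 1875964 on chromosome V with its summit at 1875805, in an exon of zig-11, an immunoglobulin-domain gene on the opposite strand (1875478 to 1892939). Its signal was 155.489, rank 626 of 1737, with 94.2404 in replicate 1 and 64.0062 in replicate 2, both in the replicates' own lists. This peak counts for no CCT gene by the rule, but with it cct-7 had a joint peak on either side. The stretches past the 3′ ends of the other CCT genes were not searched in this way.

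The genes next to unbound CCT genes were not bound in the joint list either. The partners B0457.2, F54A3.6, nst-1, F25F2.1 and alh-9 had no joint peak at their 5′ ends. The windows of nst-1, F25F2.1 and alh-9 overlap those of their CCT genes, so this is in part the same observation. In the second thresholded list the peak of cct-6 lay 19 bp upstream of alh-9. Downstream on the same strand, 5 of the 8 CCT genes have a further gene within 500 bp: mrpl-50 (mitochondrial ribosomal protein) after cct-2, F54A3.2 after cct-3, atf-7 (bZIP transcription factor) after cct-5, ddx-23 (DEAD-box helicase) after cct-6 and csn-4 (COP9 signalosome subunit) after cct-8. None of these 5 was bound, nor were the more distant qua-1, C26D10.3 and nphp-2. No CCT gene has a same-strand gene as its upstream neighbour.

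Among genes elsewhere, those with a summed replicate signal most like that of cct-8 (1020) were let-711, pir-1 and sec-5, of the genes with another peak. The gene let-711, which encodes the scaffold of the CCR4-NOT deadenylase, had 494.72 in replicate 1 and 525.77 in replicate 2. The genes pir-1 (an RNA phosphatase) and sec-5 (an exocyst subunit) share 1 peak, with 456.04 and 567.56. Likeness here is over 2 replicates only, and it is in signal at the 5′ end.

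Genes of protein folding and clients of CCT were read in the same way. They include chaperones of mitochondria and of the endoplasmic reticulum, so not all of them work with the cytosolic CCT. There were 6 lists with 48 genes in all. Of these, 12 (25%) were bound in the joint list, beside 6.07% of all protein-coding genes. For the CCT genes the closer background is the 16.1% of genes with a near divergent neighbour. By the nearest protein-coding 5′ end alone, 0 of 8 CCT genes and 9 of these 48 were bound. No difference between these shares was tested. In the own lists of the replicates 7 of the 48 were bound in each.

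Prefoldin, which hands actin and tubulin to CCT, had 2 of 6 genes bound. At pfd-6 the signal was 182.06, with 87.906 in replicate 1 and 90.7763 in replicate 2, and at pfd-1, whose peak also lies at F01G4.6, it was 113.514, with 39.1437 and 80.5734. Each was in the own list of 1 replicate only. The chaperonin of mitochondria, which is related to CCT, had 1 of 2 genes bound. This was Y22D7AL.10, the co-chaperonin Hsp10, at 414.456 (203.947 and 204.018). The gene hsp-60 itself had no joint ranked summit within 500 bp of its 5′ end, but a joint summit lay within 1000 bp of it.

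Among the clients, 0 of 5 actin genes were bound, with no test against the other lists, and their highest joint ranked signal, at act-3, was 68.8035. Of 13 tubulin genes, 3 (23.1%) were bound: tba-2 (alpha-tubulin) at 655.681, tbb-1 (beta-tubulin) at 139.447, on a peak shared with rib-2, and tba-7 at 103.817. At tba-2 the replicates gave 345.711 and 304.292, at tbb-1 71.479 and 72.2769, and at tba-7 47.6093 and 41.9675. The replicates were close at these 3 genes, and tba-2 stood highest of all 48.

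The tubulin folding cofactors, which act on tubulin after CCT, had 2 of 7 genes bound, both weakly: tbcb-1 at 89.5507 and tbcd-1 at 87.9168. Neither was in the own list of a replicate. The Hsp70 and Hsp90 machinery had 4 of 15 genes bound (26.7%): hsp-110 at 349.031 on a peak shared with rpn-3, bag-1 at 341.213, hsp-1 at 209.594 and hsp-3 at 86.7897. The first 2 encode nucleotide exchange factors of Hsp70, hsp-1 the constitutive cytosolic Hsp70 and hsp-3 an Hsp70 of the endoplasmic reticulum. Over the 12 bound genes, 6 were in both replicates' own lists and 4 (tbcb-1, hsp-3, tbcd-1 and tba-7) in neither. All 3 bound CCT genes were in both, and no difference from the 12 was tested.

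**Figure D4:**
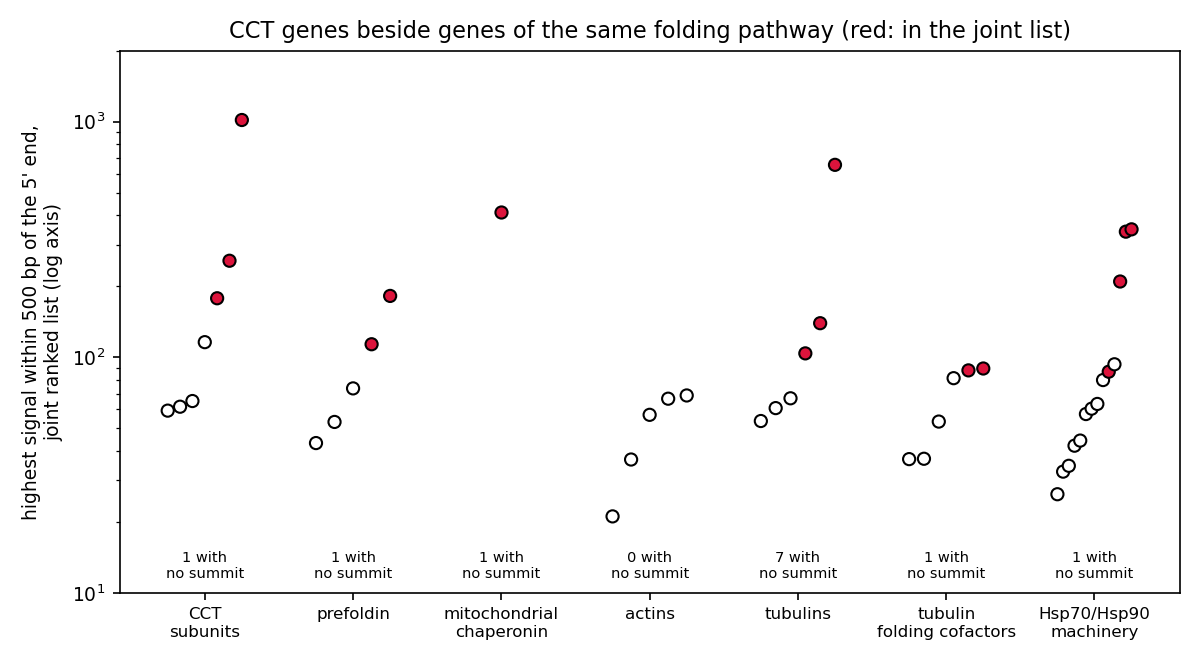
Highest joint ranked signal within 500 bp of the 5′ end, on a log axis, for the CCT genes and 6 lists of chaperones, folding cofactors and clients, 1 point a gene, red where the gene is in the joint list, with the number of genes without a summit below. The highest points are cct-8 at 1016.26, tba-2 at 655.681 and Y22D7AL.10 at 414.456, and no actin gene is red.

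The sequences under the summits were compared next. Over the summit and 50 bp on either side, the AT content was 40.6% at cct-7 and 42.6% at cct-8, against 55.4% at cct-1. Over the 1737 joint summits the median was 53.5%, with quartiles of 47.5 and 59.4%. The bound genes cct-7 and cct-8 thus lay below the lower quartile, and cct-1 lay near the median. At the summits short of the joint threshold the values were 55.4% at cct-2, 69.3% at cct-4, 59.4% at cct-5 and 58.4% at cct-6.

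Promoters, taken as 250 bp before to 50 bp after the 5′ end, were searched on both strands for short motifs. Short patterns of the kind found in heat shock elements, the sites of heat shock factor, were written as GAANNTTC and as TTCNNGAA. They can overlap in 1 promoter, and a match to either is not by itself a heat shock element. The first was in the promoters of cct-1, cct-3, cct-5, cct-7 and cct-8, beside 18.5% of all 19973 promoters. The second was in those of cct-1, cct-4, cct-5, cct-6 and cct-7, beside 18.9%. At least 1 of both was in 7 of the 8 CCT promoters, all but that of cct-2, beside 32.5% of all promoters, 34.3% of the divergent ones and 35.7% of those of bound genes. In the 201 bp windows printed above, 7 of 7 held at least 1 of both, beside 19.8% of the windows of joint summits. Of these 7, only the windows of cct-1, cct-7 and cct-8 are of joint summits. Taken singly, GAANNTTC was in 12.2% of joint windows and in 13.1% of windows centred 200 bp upstream of unbound genes. For TTCNNGAA these shares were 10.3% and 12.6%. Bound and unbound CCT genes alike had these letters, so they do not separate cct-1, cct-7 and cct-8 from the others.

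The other motifs were counted in the same promoters. TATAAA was in the promoters of cct-2 and cct-8, beside 37.9% of all promoters. A run of TTTTTT was in 4 of 8, beside 80.1%. GAGAGA (21.8% of all promoters), the E-box CACGTG (5.82%) and the cAMP response element TGACGTCA (1.51%) were in none of the 8. With 8 promoters and motifs as rare as the last of these, such counts do not set the CCT genes apart. No difference from all promoters was tested. These are matches of letters in a window and say nothing of whether a factor sits there.

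Read side by side, the 7 windows printed above share short words in pairs rather than 1 word in common. The longest word shared by a pair of windows, on either strand, was 7 to 13 bp over the 21 pairs, with a median of 10. The longest, of 13 bp, was GTTTCGAGAAGGA, whose centre lay 33 bp right of the summit at cct-2 and 27 bp right of it at cct-7. It contains a match to TTCNNGAA. It was in 2 of 1737 joint windows (0.115%), that of cct-7 among them, and in 3 of all promoters. The same pair, cct-2 and cct-7, has the word CTGGTGGCC at 34 and 28 bp left of the summit. That word was in 6 joint windows (0.345%), that of cct-7 among them. Both words stood in the same order at a bound gene and at an unbound one.

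The next longest, of 12 bp, was ATTGCGGACTTG at cct-8, found at cct-5 on the other strand, where the plus strand reads CAAGTCCGCAAT. It was in 4 joint windows (0.23%), that of cct-8 among them, and in 10 promoters. The pair of cct-5 and cct-8 also has GCGCGTCA in common. That word was in 26 joint windows (1.5%), that of cct-8 among them. It was also in 0.538% of 18761 windows centred 200 bp upstream of unbound genes. Again 1 gene of the pair was bound and the other was not.

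A pattern with 2 free bases, GGGTCTC and then CACG after them, was found at 3 genes. Its centre lay 19 bp left of the summit at cct-1, 56 bp left at cct-4 and 27 bp left at cct-6. It was in 26 of 1737 joint windows (1.5%), that of cct-1 among them, and in 0.405% of the windows of unbound genes, and the shorter GGTCTC within it was in 13.5% and 5.61%. The gene cct-1 is in the joint list, cct-6 is in the second list only and cct-4 is in neither. Of words without free bases, the longest in 3 windows were 2 of 9 bp, which are not in capitals above. TTCTAGAAA, which contains a match to TTCNNGAA, was at cct-4, cct-5 and cct-6, and in 1.04% of joint windows and 1.09% of the windows of unbound genes. TAATTTTGA was at cct-1, cct-4 and cct-6, and in 1.09% and 1.85%. Since all of these words were picked from the windows themselves, their presence at the CCT genes is a description. The shares over joint windows, promoters and windows of unbound genes can count the CCT genes too. Promoters of 2 divergent genes can also overlap, so 1 site can count for both. These shares are therefore not independent of how the words were picked.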

How the data were processed

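Peak lists from 1 group of 2 biological replicates were analysed, 8 in all: 4 of the series and 2 for each replicate. Per the deposited file descriptions, they were derived from alignments to ce11 of the replicates and of a control. Which aligner and which peak caller were run is not given in the sources used here. Each deposited peak carries the authors' signal value, of unstated scale, and a summit position, with a scaled IDR score of at most 1000. A −log10 IDR stands in the deposited ranked lists. In the ranked lists of the series, 4 unnamed columns of signal per replicate were not used, and a replicate's values were read from the lists made from it alone.

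Genes came from Ensembl release 115 for WBcel235, the same assembly as ce11, and sequences from RefSeq. Coordinates count from 1. Summits were assigned to 5′ ends within 500 bp with Python 3.11.15, numpy 2.4.6 and pandas 2.3.3. The assignment was tested on planted peaks. No test of significance was run. The members and gene lists were chosen with earlier results of these data known. The genes named were all members, their neighbours, every bound gene of the folding lists, and 3 genes most like the highest member; act-3, the highest actin, F01G4.6, rib-2, rpn-3 and zig-11 follow from their peaks. Of 16 symbols in the Hsp70 and Hsp90 list 15 were found, since daf-21 is an older name of hsp-90.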

Additional observations from a re-analysis of the deposited data

How the results depend on the processing

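The CCT count stayed at 3 with a window of 1000 bp, with the stronger 868 peaks, at an IDR of at most 0.001 (987 peaks), with the 5′ ends of any transcript, with the first gene of a same-strand run, in each replicate's own list and, as an alternative chosen after seeing the data, with peaks that overlap a stronger one dropped (1617 left). It was 2 with a window of 250 bp, 4 in the second thresholded list and 0 with the nearest protein-coding 5′ end only. Some of these settings could not have lowered or raised the count. No CCT gene has a same-strand upstream neighbour, so the same-strand run left their 5′ ends as they were. The ranks of the 3 peaks (77, 359 and 536) and their IDR of at most 0.000106 fixed the counts with the stronger peaks and at 0.001. The percentage of all genes bound was 3.9 with 250 bp, 7.73 with 1000 bp, 3.93 with the stronger peaks, 4.22 at an IDR of at most 0.001, 4.67 with the nearest 5′ end only, 8.26 with the first gene of a same-strand run, and 4.03 to 4.4 when 1 replicate was left out. With 250 bp the folding lists had 1 prefoldin gene, 1 tubulin gene, 0 tubulin cofactors and 2 genes of the Hsp70 and Hsp90 machinery. With 1000 bp hsp-60 was added, for 2 of the mitochondrial chaperonin, and hsp-90 and hsp-4, for 6 of the Hsp70 and Hsp90 machinery. The second thresholded list had 1 tubulin cofactor. Leaving out 1 replicate gave 1 to 1 prefoldin gene and 0 to 0 tubulin cofactors. Within 50 bp of the summits, GAANNTTC was at 1 gene, TATAAA at 0 and TTTTTT at 1. No paired analysis was possible because there is 1 group. Depth is unknown, so a missing peak is not evidence that a promoter is unbound. The gene bodies had 0 joint summits under every alternative run.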
